A study of Homo sapiens with 24 samples.

Results

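AMP-activated protein kinase (AMPK) and the mTOR complex 1 pathway were followed through 10 genes in human hepatoma cells, the line Huh7.5.1, after silymarin or solvent. The genes were taken by name from the 18274 genes measured: PRKAA1, PRKAA2, PRKAB1, PRKAB2, PRKAG1, PRKAG2, TSC2, MTOR, RPTOR and EIF4EBP1. Each was read by 1 probe set. Total RNA from 24 samples was measured on Affymetrix Human Gene 1.0 ST arrays, 1 array per sample. Cells received either silymarin, which is extracted from milk thistle, or its solvent DMSO, and were taken after 4 h (4 DMSO and 4 silymarin arrays), 8 h (5 and 3) or 24 h (5 and 3). All samples come from this 1 cell line, every title carries the word novirus, and the labels give no dose of silymarin. The labels do not say that replicates were separate cultures, so p-values measure only the spread between these samples, which may be technical. The series asks what silymarin does to hepatoma cells over time.

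AMPK is a sensor of cellular energy built from a catalytic alpha subunit (PRKAA1 or PRKAA2), a scaffolding beta subunit (PRKAB1 or PRKAB2) and a gamma subunit that binds AMP, ADP and ATP (PRKAG1, PRKAG2 or PRKAG3). The kinase MTOR, held with its substrates by RPTOR in mTOR complex 1, promotes translation and growth; AMPK restrains it by phosphorylating RPTOR and TSC2, the part of the tuberous sclerosis complex that switches off the small GTPase RHEB. EIF4EBP1 encodes 4E-BP1, which holds back cap-dependent translation until mTOR complex 1 phosphorylates it. Hepatocytes use this circuit to set lipid, glucose and protein synthesis to the supply of nutrients. Its activity is set largely by phosphorylation, which an expression array does not measure.

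Among all pairs of the 10 genes, PRKAG1 and TSC2 had the most similar pattern over the 24 arrays, so the sequences before their transcription starts are shown. Each is the 150 bases before the first start that RefSeq lists, GRCh38.p14, written 5′ to 3′ on the gene's strand. PRKAG1 lies on the minus strand (chr12:49018777-49018926) and TSC2 on the plus strand (chr16:2047835-2047984), where the window falls between the listed starts of NTHL1 and TSC2. Capitals mark GGGCGG (a GC box), CACGTG (an E-box) and TGATGNAA (the C/EBP-ATF composite element), searched on both strands.
PRKAG1: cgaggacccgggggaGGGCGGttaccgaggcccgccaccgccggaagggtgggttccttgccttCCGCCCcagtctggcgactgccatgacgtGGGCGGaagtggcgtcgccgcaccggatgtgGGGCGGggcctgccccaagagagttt
TSC2: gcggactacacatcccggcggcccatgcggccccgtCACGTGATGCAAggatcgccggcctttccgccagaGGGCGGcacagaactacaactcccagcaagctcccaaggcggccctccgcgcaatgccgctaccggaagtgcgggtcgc
The PRKAG1 window held 4 GC boxes and neither of the other motifs. The TSC2 window held 1 GC box, and 1 E-box 114 to 109 bases before the start that overlaps 1 composite element 110 to 103 bases before it. Of 35116 windows of 150 bases before a listed start, 36.8% held GGGCGG, 4.57% held CACGTG and 1.90% held TGATGNAA. These windows count every listed start of a gene, not only the first. The 7 other members with a listed window held 0 to 5 GC boxes and neither of the other motifs. A match describes the letters only.

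The arrays were alike in scale, with medians from 7.04 to 7.18 on the log2 scale and correlations across genes from 0.989 to 0.998 between arrays. The labelled cell type was checked on its markers. All 13 hepatocyte and hepatoma markers measured lay above the median gene, from 11.47 for APOA1 to 13.34 for ALB. The mean of this list ranged from 12.4 to 12.6 over the arrays. Of other cell types, 1 of 8 fibroblast markers (FBN1, 8.05), 0 of 7 endothelial markers and 3 of 7 leukocyte markers lay above the median gene, among the last LYZ at 12.29, while PTPRC, the pan-leukocyte marker, was at 4.33. Per array, the means of these lists ranged from 6.07 to 6.47, 5.89 to 6.28 and 7.33 to 7.55. In bulk RNA, fewer cells with a transcript and less of it per cell cannot be told apart.

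The arrays also split on DDIT4, a stress-induced gene whose product REDD1 restrains mTOR complex 1 through the tuberous sclerosis complex. DDIT4 was 9.67 or higher on 10 arrays and 8.35 or lower on 14, with no array between. The 10 arrays were spread over every group: 2 of 4 DMSO and 1 of 4 silymarin arrays at 4 h, 3 of 5 and 2 of 3 at 8 h, and 1 of 5 and 1 of 3 at 24 h. High and low arrays thus occurred under both treatments and at every time, and nothing in the labels names the split. By replicate number, replicate 1 was at 9.67 to 10.34 in every group except DMSO at 24 h (8.00). Replicate 2 was at 8.17 or lower in every group. The labels do not say what replicate numbers stand for, and their relation to the split was not tested. The part of the split in each silymarin comparison was examined by adding the DDIT4 level to the fit.

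None of the 10 genes passed the test between silymarin and DMSO at 4, 8 or 24 h. Silymarin minus DMSO lay between -0.26 and 0.14 on the log2 scale at 4 h, between -0.19 and 0.04 at 8 h, and between -0.03 and 0.36 at 24 h. The median over the 10 genes was 0.0070, -0.040 and -0.0034 in turn, against -0.0051, -0.018 and 0.013 over all 18274 genes. In limma's test, 0 of the 10 genes passed an adjusted p of 0.05 at any time (0% of all genes passed), and 0 of 10 had an unadjusted p under 0.05, against 2.48% of all genes at 4 h, 3.93% at 8 h and 3.03% at 24 h. The smallest adjusted p among the 10 genes was 0.99993 at 4 h, 0.991 at 8 h and 0.99971 at 24 h. The silymarin and DMSO arrays overlapped for 10 of 10 genes at each time, while 2.18%, 2.93% and 1.95% of all genes did not overlap.

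**Figure D1:**
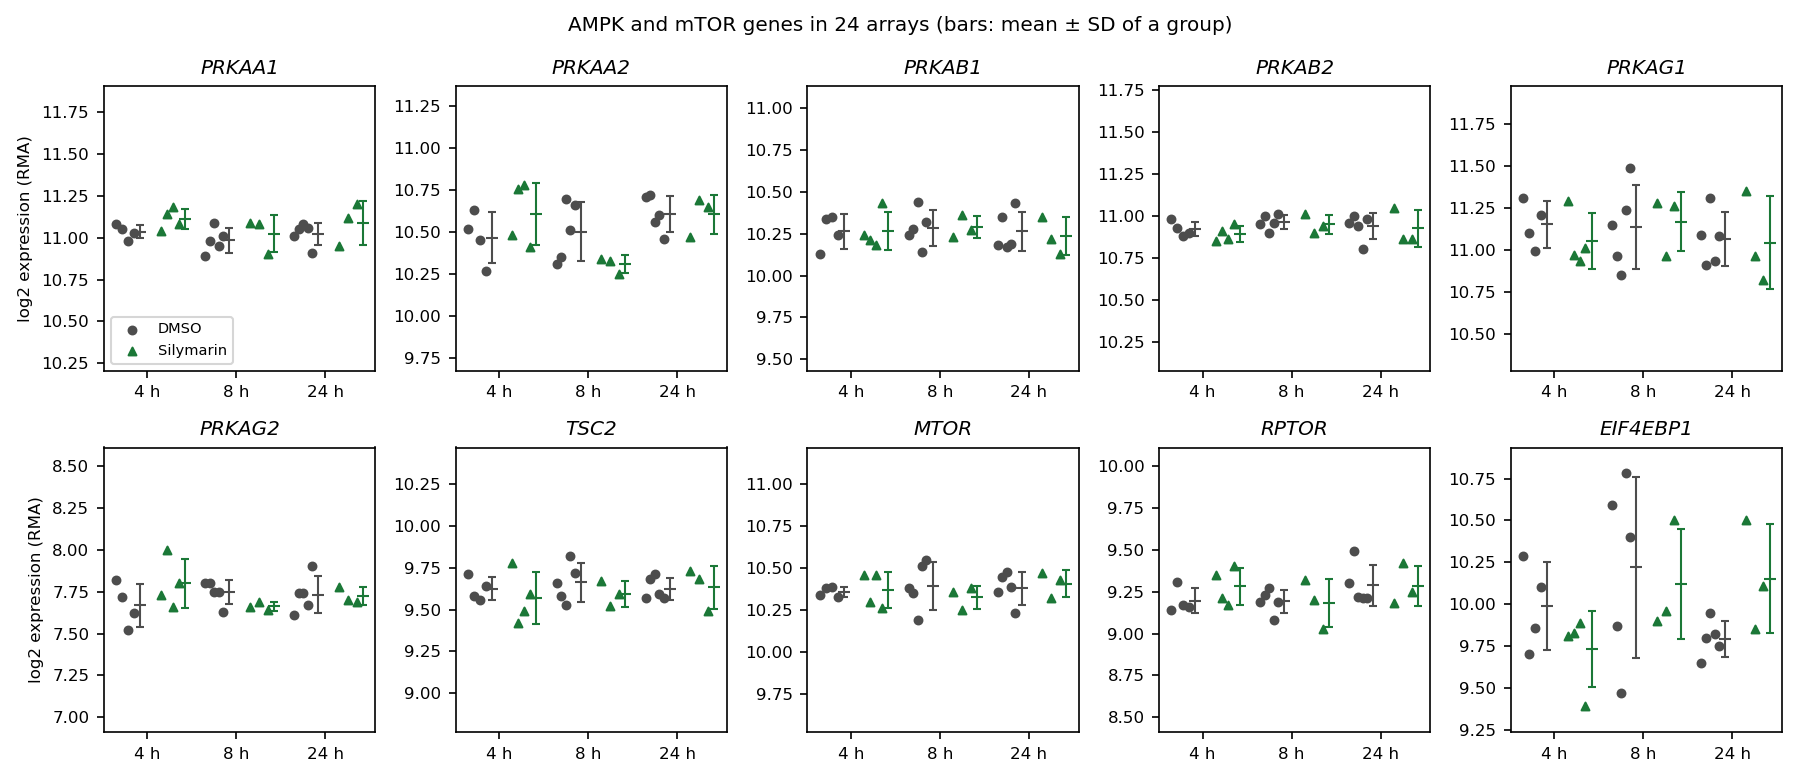
Log2 expression of the 10 genes on each of the 24 arrays by time, with DMSO as grey circles and silymarin as green triangles; bars are the group mean ± SD, and every panel spans the same height in log2 units. EIF4EBP1 spreads over 1.39 log2 units and PRKAB2 over 0.25, and silymarin overlaps DMSO in every panel at every time.

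PRKAA1, which encodes the catalytic subunit AMPK alpha 1, was among the steadiest of the genes, from 10.89 to 11.20 over the 24 arrays. Its SD within groups was 0.079. A smaller one was found for 9.50% of all genes and for 16.3% of the genes at or above the median level. Silymarin exceeded DMSO by 0.07 (SE 0.06) at 4 h, 0.04 (SE 0.06) at 8 h and 0.07 (SE 0.06) at 24 h, differences no larger than this spread.

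PRKAA2 encodes the other catalytic subunit, AMPK alpha 2. At 4 h it was 10.52, 10.63, 10.45 and 10.27 with DMSO and 10.48, 10.76, 10.78 and 10.41 with silymarin. At 8 h it was 10.31, 10.35, 10.70, 10.51 and 10.66 with DMSO and 10.34, 10.33 and 10.25 with silymarin. At 24 h it was 10.71, 10.72, 10.56, 10.60 and 10.46 with DMSO and 10.47, 10.69 and 10.65 with silymarin. The silymarin arrays at 8 h formed the lowest and tightest group, yet they overlapped the low end of the DMSO arrays, where replicates 1 and 2 were as low. The group means were 10.31 ± 0.05 (SD, n = 3) and 10.50 ± 0.18 (SD, n = 5).

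The PRKAA2 difference at 8 h was -0.19 (95% confidence interval -0.40 to 0.02), with limma's unadjusted p = 0.0690 and adjusted p = 0.991. At 4 h the difference was 0.14 (SE 0.10), and at 24 h the means were both 10.61. The change of the silymarin difference from 4 h to 8 h was -0.33 (95% confidence interval -0.63 to -0.04). It had an unadjusted p = 0.0270 in limma and an adjusted p = 0.99982, so it did not pass. Between these times 1 of 10 members had a changing difference at an unadjusted p under 0.05, beside 2.37% of all genes. Between 8 h and 24 h it was 0 of 10 members (4.08% of all genes), and between 4 h and 24 h 0 of 10 (3.02%). Of the steps between neighbouring group means, ordered by level, 1 step of PRKAA2 exceeded its SD within groups of 0.14: the 0.16 between silymarin at 8 h, the lowest group, and DMSO at 4 h. For the other 9 genes no neighbouring group means stood farther apart than the SD within groups.

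Neither scaffolding beta subunit passed a test. PRKAB1, for beta 1, lay between 10.13 and 10.44 on all arrays, and its group means between 10.24 and 10.29. PRKAB2, for beta 2, had the narrowest range of the 10 genes, 0.25 log2 units from 10.80 to 11.05. Its SD within groups, 0.064, was undercut by 3.29% of all genes and by 6.21% of the genes at or above the median level. The differences between silymarin and DMSO for PRKAB2 were -0.03 (SE 0.06) at 4 h and smaller at 8 h and 24 h.

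The gamma subunits differed in level and spread. PRKAG2, for gamma 2, had a mean of 7.73, below the median of 7.89 over all genes and arrays, while PRKAG1 had a mean of 11.10. The processing compresses ratios of low signals, so their spreads are not directly comparable. PRKAG2 lay between 7.52 and 8.00. For PRKAG2 silymarin minus DMSO was 0.13 (SE 0.07) at 4 h, with limma's unadjusted p = 0.0926 and adjusted p = 0.99993, and -0.08 (SE 0.08) at 8 h. PRKAG1, for gamma 1, covered 0.67 log2 units, and its SD within groups of 0.198 was larger than that of 89.3% of all genes.

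At 4 h PRKAG1 was 11.31, 11.10, 10.99 and 11.21 with DMSO and 11.29, 10.97, 10.93 and 11.01 with silymarin. At 8 h it was 11.15, 10.96, 10.85, 11.24 and 11.49 with DMSO and 11.28, 10.96 and 11.26 with silymarin. At 24 h it was 11.09, 10.91, 11.31, 10.93 and 11.08 with DMSO and 11.35, 10.96 and 10.82 with silymarin. Each of the 6 groups thus held arrays near the top of the range and arrays near the bottom, and the groups overlapped throughout. The silymarin differences were -0.10 (SE 0.13) at 4 h, 0.03 (SE 0.13) at 8 h and -0.02 (SE 0.13) at 24 h, all smaller than the spread within groups.

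TSC2, the brake on RHEB, was 9.71, 9.58, 9.56 and 9.64 with DMSO at 4 h and 9.78, 9.42, 9.49 and 9.59 with silymarin. At 8 h it was 9.66, 9.58, 9.53, 9.82 and 9.72 with DMSO and 9.67, 9.52 and 9.59 with silymarin. At 24 h it was 9.57, 9.68, 9.71, 9.59 and 9.57 with DMSO and 9.73, 9.68 and 9.49 with silymarin. The groups overlapped at every time, and the widest group was silymarin at 4 h, which held the second highest and the lowest array of all. The differences were -0.05 (SE 0.08), -0.07 (SE 0.08) and 0.01 (SE 0.08) at 4, 8 and 24 h.

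MTOR, the kinase itself, was 10.34, 10.38, 10.39 and 10.33 with DMSO at 4 h and 10.46, 10.30, 10.46 and 10.26 with silymarin. At 8 h it was 10.38, 10.35, 10.19, 10.51 and 10.55 with DMSO and 10.36, 10.25 and 10.38 with silymarin. At 24 h it was 10.36, 10.45, 10.48, 10.39 and 10.23 with DMSO and 10.47, 10.32 and 10.43 with silymarin. The DMSO arrays at 4 h lay close together and inside the silymarin range, whereas DMSO at 8 h held both the lowest and the highest array of all. The largest of the 3 differences was -0.07 (SE 0.08), at 8 h. RPTOR, which recruits substrates to the complex, lay between 9.03 and 9.49, and its largest difference was 0.09 (SE 0.08), at 4 h.

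EIF4EBP1 was the most variable of the 10 genes. At 4 h it was 10.29, 9.70, 9.86 and 10.10 with DMSO and 9.81, 9.83, 9.89 and 9.39 with silymarin. At 8 h it was 10.59, 9.87, 9.47, 10.78 and 10.40 with DMSO and 9.90, 9.96 and 10.50 with silymarin. At 24 h it was 9.65, 9.80, 9.95, 9.82 and 9.75 with DMSO and 10.50, 9.85 and 10.11 with silymarin. DMSO at 24 h was the tightest group, and 2 of 3 silymarin arrays lay above all of it while the third lay inside it. DMSO at 8 h held the highest array of all and the second lowest.

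The SD of EIF4EBP1 within groups, 0.333, exceeded that of 98.2% of all genes. Silymarin minus DMSO was -0.26 (95% confidence interval -0.69 to 0.18) at 4 h, -0.10 (-0.55 to 0.35) at 8 h and 0.36 (-0.09 to 0.81) at 24 h. At 24 h limma's unadjusted p was 0.115 and the adjusted p was 0.99971. The change of the difference from 4 h to 24 h was 0.61 (95% confidence interval -0.02 to 1.24), with an unadjusted p = 0.0557 and an adjusted p = 0.99994 in limma. With the DDIT4 level in the fit, the differences were -0.19 at 4 h, -0.14 at 8 h and 0.28 at 24 h. The difference at 24 h was 0.19 without silymarin replicate 1 and 0.51 without silymarin replicate 2, and at 4 h it was -0.14 without silymarin replicate 4. At 24 h, 1 of 5 DMSO arrays and 1 of 3 silymarin arrays had DDIT4 at 9.67 or higher, and the array with EIF4EBP1 at 10.50 was that silymarin array.

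**Figure D2:**
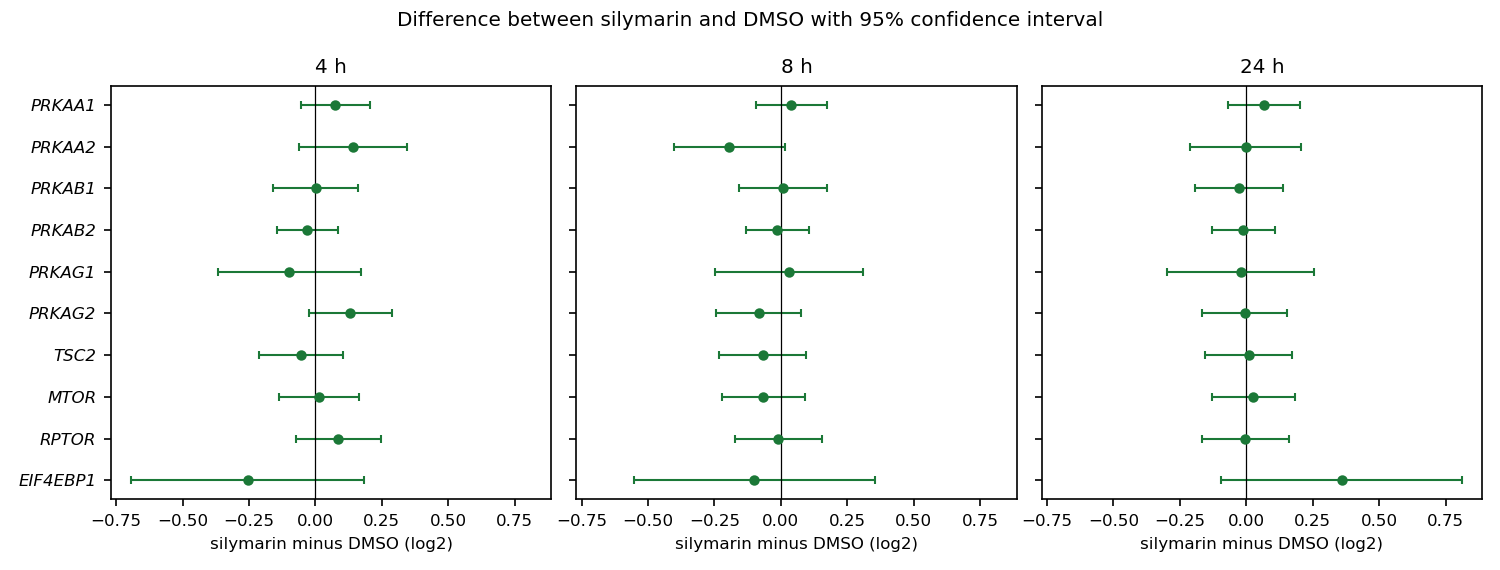
Silymarin minus DMSO on the log2 scale for the 10 genes at 4, 8 and 24 h; points are limma estimates and bars 95% confidence intervals. Every interval spans 0, and those of EIF4EBP1 are the widest, from -0.69 to 0.18 at 4 h.

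In the solvent alone, the level of EIF4EBP1 was 0.43 lower at 24 h than at 8 h, as a difference of -0.43 (95% confidence interval -0.82 to -0.04). The unadjusted p in limma was 0.0338 and the adjusted p was 0.438, and 10.9% of all genes had an unadjusted p under 0.05 in this comparison. DMSO at 8 h had 3 of 5 arrays with high DDIT4 and DMSO at 24 h had 1 of 5. No other member had an unadjusted p under 0.05 between DMSO times, where 6.50% of all genes had one between 4 h and 8 h, and 1.70% between 4 h and 24 h. In the F-test over all 6 groups, 0 of 10 members passed and 0 had an unadjusted p under 0.05, where 7.20% of all genes had one. The smallest F-test p among the members was that of PRKAA2 (limma, unadjusted p = 0.0637, adjusted p = 0.674).

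Other genes of the pathway were read from 8 lists of 94 genes, 82 of them measured. In limma's test 0 of 82 passed at any time. At 4 h 0 genes were higher and 1 was lower at an unadjusted p under 0.05, at 8 h 1 and 2, and at 24 h 1 and 1. These are 1.22%, 3.66% and 2.44% of the 82 genes, beside 2.48%, 3.93% and 3.03% of all genes. Counts this small do not set the pathway apart from all genes. At 4 h this was DDIT4L, a paralogue of DDIT4, at -0.18 (SE 0.09). At 8 h the arginine sensor CASTOR1 was at 0.20 (SE 0.08), the Ragulator subunit LAMTOR3 at -0.22 (SE 0.10) and the phosphoinositide 3-kinase regulatory subunit PIK3R1 at -0.17 (SE 0.08). At 24 h SREBF1, the lipogenic transcription factor that AMPK phosphorylates, was at 0.20 (SE 0.08), and SAMTOR, a sensor of S-adenosylmethionine, at -0.19 (SE 0.08). The adjusted p of these 6 genes was 0.991 or higher in limma.

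Among the upstream kinases of AMPK and their partners, together with PRKAG3, the smallest unadjusted p was that of CAB39 at 8 h, with a difference of 0.13 (SE 0.08). Among the other subunits of mTOR complexes 1 and 2 the smallest was that of the chaperone partner TTI2 at 8 h, 0.15 (SE 0.09). In the list of mTOR complex 1 substrates and cap-binding factors, the adaptor GRB10 was at -0.25 (SE 0.14) at 8 h. Of the stress brakes on mTOR complex 1, TRIB3 was at 0.51 (SE 0.28) at 24 h and the sestrin SESN2 at 0.22 (SE 0.36) at 8 h. DDIT4, in the same list, had the widest errors, at -0.34 (SE 0.77) at 4 h, 0.23 (SE 0.80) at 8 h and 0.43 (SE 0.80) at 24 h.

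The spread within groups was then set against DDIT4. In a fit with the 6 group means and the DDIT4 level, the slope of a gene is its log2 change per log2 unit of DDIT4 among arrays of 1 group. Because the arrays stand in clusters on DDIT4, the slopes carry no test and are given as a description, beside the share of all genes with a lower slope. The slope was 0.19 (SE 0.04) for EIF4EBP1, above 99.3% of all genes, and 0.14 (SE 0.02) for PRKAG1, above 98.4%. It was 0.07 (SE 0.02) for TSC2, above 92.1%, and 0.05 (SE 0.02) for MTOR, above 87.8%. The other 6 slopes lay between -0.04 for PRKAA2 and 0.02 for PRKAB2, and the median of all genes was -0.0096.

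For PRKAG1 and TSC2 the pattern was visible array by array. In DMSO at 4 h, replicates 1 and 4, with DDIT4 at 9.69 and 10.01, had the highest PRKAG1 (11.31 and 11.21) and the highest TSC2 (9.71 and 9.64). In silymarin at 24 h, replicate 1, with DDIT4 at 10.16, had PRKAG1 at 11.35 and TSC2 at 9.73. Replicates 2 and 3 of that group, with DDIT4 at 8.15 and 8.35, had PRKAG1 at 10.96 and 10.82 and TSC2 at 9.68 and 9.49. The same order, with the arrays of high DDIT4 on top, was found in 6 of 6 groups for PRKAG1 and TSC2, in 4 of 6 for MTOR and EIF4EBP1, and in 0 to 2 of 6 for the other 6 genes. Of all genes, 2.04% showed it in 6 groups and 10.2% in 4 or more. The opposite order, with the arrays of high DDIT4 at the bottom, was found in 3 of 6 groups for PRKAB1 and RPTOR, and 25.6% of all genes showed it in 3 or more. The exceptions for EIF4EBP1 were silymarin at 4 h, where replicate 1 had DDIT4 at 10.34 and EIF4EBP1 at 9.81, and silymarin at 8 h, where replicate 1 had 10.14 and 9.90.

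**Figure D3:**
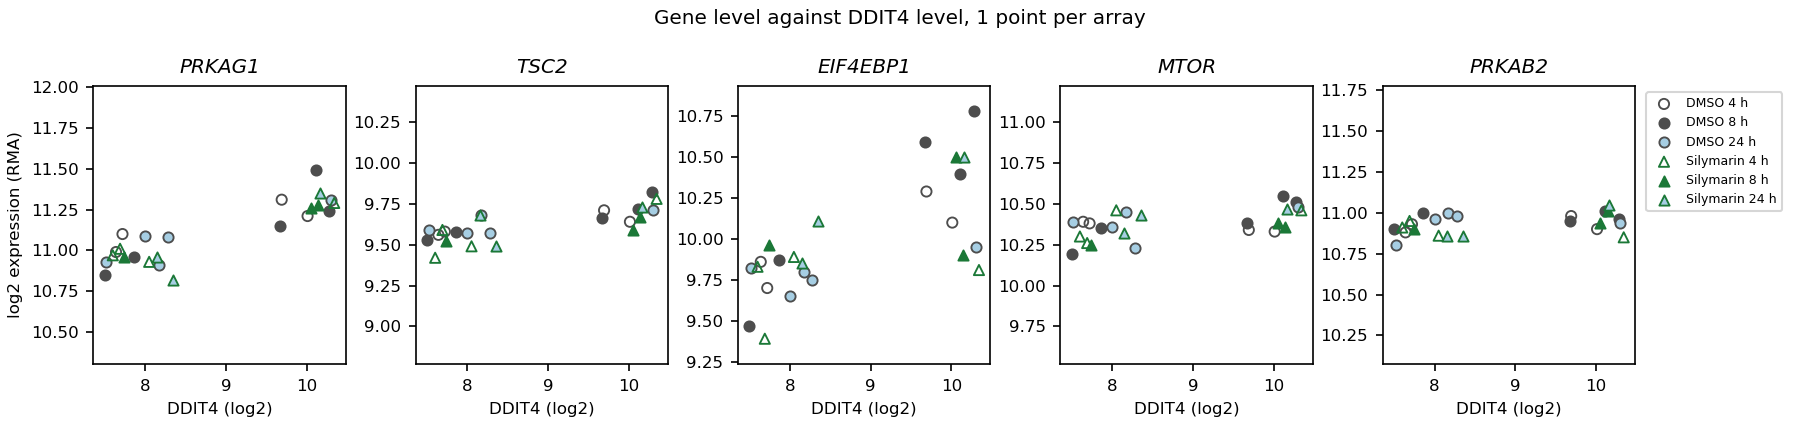
Log2 level of 5 genes against the log2 level of DDIT4, 1 point per array, with colour and fill for treatment and time and the same height of axis in each panel. The 10 arrays with DDIT4 at 9.67 or higher carry the higher PRKAG1 and TSC2 values of their groups, EIF4EBP1 spreads widely on both sides, and PRKAB2, with a slope of 0.02, stays level.

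Within either side of the gap, no relation of a member to DDIT4 passed the test of Pearson's r. The p-values of the rank correlation rho were not adjusted. Of 20 relations (10 genes, 2 sides), 0 had a permutation p under 0.05 for Pearson's r, and the smallest p adjusted by Benjamini-Hochberg was 0.662. Among the 10 arrays with high DDIT4, MTOR had r = 0.63 (permutation p = 0.0505) and rho = 0.60 (permutation p = 0.0737), and r = 0.56 without the 2 arrays farthest from the median. TSC2 had r = 0.49 (permutation p = 0.147) and rho = 0.72 (permutation p = 0.0232) there, and r = 0.80 without those 2 arrays. Such values from 8 arrays are unstable: without those 2 arrays r went from -0.31 to 0.76 for PRKAG2 and from 0.13 to -0.48 for PRKAB1. For the other genes r kept its sign there. Among the 14 others, PRKAG1 had r = -0.05 (permutation p = 0.851) and rho = -0.11 (permutation p = 0.704), and r = 0.07 without the 2 farthest.

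Slopes of the pathway genes, also untested, were above 0 for 49 of 81 genes (60.5%), with a median of 0.0085, against 40.3% of all genes and a median of -0.0096. The largest belonged to stress brakes on mTOR complex 1: SESN2, a leucine-binding sestrin, at 0.44 (SE 0.02), and TRIB3, a pseudokinase that binds AKT, at 0.31 (SE 0.04). In the amino acid branch, the Rag GTPase RRAGC was at 0.23 (SE 0.04), and folliculin (FLCN) and its partner FNIP1, which act on RRAGC, were at 0.14 (SE 0.02) and 0.16 (SE 0.03). GRB10 was at 0.13 (SE 0.03), RHEBL1, a paralogue of RHEB, at 0.11 (SE 0.03), and the acetyl-CoA carboxylase ACACB at 0.11 (SE 0.03). At the other end lay TBC1D1, a Rab GTPase-activating protein phosphorylated by AMPK, at -0.06 (SE 0.03), and the insulin receptor substrate IRS1 at -0.06 (SE 0.02). The 9 other subunits and partners of the mTOR complexes lay between -0.04 for PRR5L and 0.04 for TTI2, 5 above 0 and 4 below. These genes were named after their slopes were seen.

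**Figure D4:**
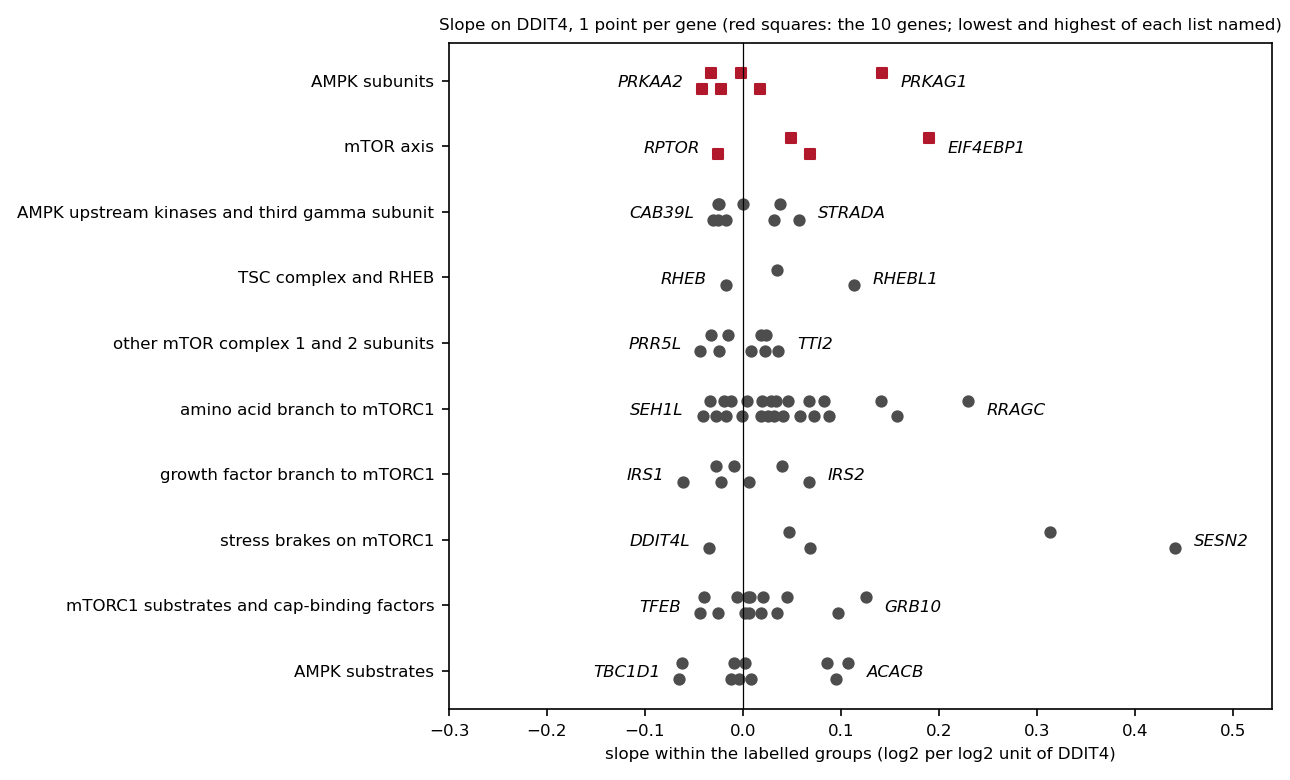
Slope on DDIT4 within the labelled groups, in log2 units per log2 unit of DDIT4, for the 10 genes (red squares) and 81 other pathway genes (grey circles) by list, 1 point per gene, with the lowest and highest gene of each list named. SESN2 stands farthest to the right at 0.44, EIF4EBP1 and PRKAG1 lead their lists at 0.19 and 0.14, and the other subunits of the mTOR complexes stay between -0.04 and 0.04.

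Likeness over all 24 arrays was measured by Pearson's r, as a description, against the 9137 genes at or above the median level. The arrays share the DDIT4 split, and how far r follows it was not tested. EIF4EBP1 was most like SHMT2 (0.93), PSAT1 (0.91), SLC6A9 (0.91), PHGDH (0.91) and LPAR3 (0.90); of these, PHGDH and PSAT1 encode enzymes of serine synthesis, SHMT2 a serine hydroxymethyltransferase and SLC6A9 a glycine transporter. PRKAG1 was most like SEC22C, ST3GAL3 and RNF141 (0.94 each), and then CAMLG and SRXN1 (0.93 each). TSC2 was nearest GRN, which encodes progranulin, DNASE2, a lysosomal nuclease, and FAM234A (0.87 each). MTOR was nearest TPR (0.87), PRKAA1 nearest DHX36 (0.88), PRKAA2 nearest HELZ (0.92) and RPTOR nearest DRG2 (0.90). The closest genes to PRKAB1 (NT5C, 0.74), PRKAB2 (TMEM184C, 0.76) and PRKAG2 (FBXO7, 0.59) were less alike.

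Among the 10 genes themselves, PRKAG1 and TSC2 had r = 0.72 and rho = 0.71, and the catalytic subunits PRKAA1 and PRKAA2 had r = 0.56 and rho = 0.51. EIF4EBP1 and RPTOR ran in opposite directions, with r = -0.66 and rho = -0.71. EIF4EBP1 had r = 0.57 with PRKAG1 and r = 0.55 with MTOR. These values describe the same 24 arrays and were not tested.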

How the data were processed

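The values deposited by the authors are on the log2 scale. RMA and oligo are named without versions in the submitters' processing notes. RMA subtracts background, equalises the arrays' distributions by quantiles and combines the probes of a set, so ratios of low signals are compressed. The genome build behind the arrays' annotation is not given in the sources used here. Of 28869 probe sets, 19302 had 1 gene symbol, 1729 several and 7838 were not listed in the platform annotation. Probe sets with 1 symbol were kept, the one with the highest mean for each of 18274 genes. No other sample column was left over. The number of arrays per group, 3 to 5, limits the precision.

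All 24 arrays entered a single limma model of 6 group means (lmFit and eBayes, limma 3.58.1, R 4.3.3; 18 residual and 5.04 prior degrees of freedom). Tests were two-sided, with Benjamini-Hochberg adjustment over all genes and a threshold of 0.05. Confidence intervals are at 95%. The DDIT4 level was a covariate in a further fit, and slopes from it were added after seeing the data. Correlations within either side of the DDIT4 gap used 100000 permutations, which shuffled the arrays of a side without regard to treatment or time. The fits were tested on simulated data. The members and gene lists were chosen with earlier results of these data known. The rule for named genes took the 10 genes, 5 genes most like each of them, and, where no listed gene passed, the gene with the smallest p of each list, time and direction, of which examples are printed. Alternatives changed the array scaling, the probe sets or dim genes kept, limma's settings, the replicate block, the groups in the fit, the threshold, and left out each array in turn. Correlations of deviations between DMSO and silymarin arrays of the same number and time ran from -0.14 to 0.43 over 10 pairs. Differently numbered arrays were not compared, so these values cannot decide whether replicate numbers pair the arrays. Promoter windows come from RefSeq (GRCh38.p14), which matched 9 of the 10 genes. Listed pathway genes with no probe set of their own were not analysed here.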

Additional observations from a re-analysis of the deposited data

Results flagged for a closer look

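Dixon's test, applied to 40 groups of 4 or 5 arrays (10 genes, 4 groups), singled out 2, about as many as the 1 in 20 that chance gives. EIF4EBP1 was 9.39 on silymarin replicate 4 at 4 h, against 9.81 to 9.89 on the other 3 arrays of that group, and DDIT4 on this array was 7.69. PRKAB2 was 10.80 on DMSO replicate 4 at 24 h, where the other 4 arrays were at 10.94 or higher, and DDIT4 there was 7.52.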

How the results depend on the processing

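No member passed limma's test between silymarin and DMSO under any alternative run. Each member had 1 probe set, so averaging a gene's probe sets or keeping all probe sets could not change its difference, only its p-values. Counts of genes past the threshold stayed at 0 in the silymarin, interaction, DMSO and F-test comparisons, with one exception: silymarin at 24 h had 1 gene with repeated quantile normalization, and 0 to 1 when each array was left out (1 without silymarin replicate 1 or 2 at 4 h, or DMSO replicate 3 at 8 h). At the stricter thresholds, an adjusted p under 0.01 or a change of at least 2-fold, a main count of 0 could only stay 0. Those runs therefore decide nothing. Small differences turned sign, and the cause was not tested. PRKAB1 at 4 h became -0.00034 re-centred, -0.020 with quantile normalization, -0.015 with cyclic loess, -0.023 with array weights and -0.011 with DDIT4. MTOR at 4 h became -0.0081 (quantile) and -0.0024 (loess). At 8 h PRKAB2 became 0.00074 (re-centred), PRKAG1 -0.073 (weights) and -0.0015 (DDIT4), and RPTOR 0.0049 (re-centred), 0.0043 (quantile), 0.0068 (loess) and 0.00012 (weights). At 24 h PRKAA2 became 0.0047 (loess), 0.026 (weights) and 0.015 (DDIT4), TSC2 -0.021 (DDIT4), and RPTOR 0.043 (weights) and 0.0069 (DDIT4). With the replicate block as a fixed term, PRKAG1 at 24 h became 0.032 and the PRKAG2 slope 0.0076; as a random block its correlation was -0.0094, and neither changed a call. The PRKAG2 slope was also 0.0015 (re-centred), 0.0051 (quantile) and 0.0041 (loess).

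Leaving out each array in turn gave these ranges where a sign turned. At 4 h PRKAB1 ran from -0.053 to 0.030 and MTOR from -0.017 to 0.051. At 8 h PRKAB1 ran from -0.030 to 0.045, PRKAB2 from -0.044 to 0.011, PRKAG1 from -0.041 to 0.133, RPTOR from -0.077 to 0.065 and EIF4EBP1 from -0.289 to 0.041. At 24 h PRKAA2 ran from -0.047 to 0.063, PRKAB1 from -0.088 to 0.025, PRKAB2 from -0.076 to 0.020, PRKAG1 from -0.177 to 0.092, PRKAG2 from -0.038 to 0.035, TSC2 from -0.040 to 0.082, MTOR from -0.012 to 0.072 and RPTOR from -0.072 to 0.048. The PRKAG2 slope ran from -0.011 to 0.0058. Other differences kept their sign but moved widely. At 4 h these were PRKAA2 (0.073 without DMSO replicate 4), PRKAB2 (-0.013 without DMSO replicate 1, -0.051 without silymarin replicate 4), PRKAG1 (-0.046 without DMSO replicate 1, -0.179 without silymarin replicate 1), PRKAG2 (0.064 without silymarin replicate 2), TSC2 (-0.0037 without silymarin replicate 2, -0.123 without silymarin replicate 1), RPTOR (0.046 without silymarin replicate 4) and EIF4EBP1 (-0.351 to -0.142). At 8 h PRKAA1 ran from 0.0048 to 0.103, TSC2 from -0.108 to -0.029 and MTOR from -0.118 to -0.027, and at 24 h PRKAA1 from 0.0085 to 0.138 and EIF4EBP1 from 0.185 to 0.508. The slopes of PRKAA1 (-0.032 to -0.014), PRKAB2 (0.0091 to 0.026) and RPTOR (-0.038 to -0.019) did so too. With ASNS in place of DDIT4, chosen after seeing the data, some slopes moved by more than their SE. They were 0.40 for EIF4EBP1, 0.24 for PRKAG1, 0.10 for TSC2, 0.09 for MTOR, -0.08 for PRKAB1 and -0.07 for RPTOR. These are per log2 unit of ASNS, whose SD was smaller than that of DDIT4 in every group (0.95 against 1.31 in DMSO at 8 h). Slopes on ASNS and on DDIT4 are therefore not on the same scale. With CHAC1 no slope moved by more than its SE.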
